A study of Mus musculus with 6 samples.

Results

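A pair of inhibitors of the same protein family were set directly against each other, JQ1 at 100 nM and I-BET151 at 500 nM, each on 2 arrays of cultured mouse embryonic pancreas. These are 4 of the 6 arrays of the study, chosen by their titles with no measured value used. Dorsal pancreatic buds, the outgrowths of gut endoderm and surrounding mesenchyme from which much of the pancreas forms, were taken at embryonic day E11.5 and cultured for 24 h in pools of 10 buds per array. The other 2 arrays held buds cultured with 0.1% DMSO, and serve as the background level. The labels give neither the strain nor the sex of the embryos, and they do not say whether the pools were separate litters or cultures. The p-values therefore describe variation among these 4 pools only, and it may be technical. Compound and dose differed together, so an effect of the compound and an effect of its dose cannot be told apart. With 1 pair of compounds, each at 1 dose and 1 time, no dose response was measured.

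BET proteins (Brd2, Brd3 and their relatives) carry bromodomains that bind acetylated lysines on histones, and through them the elongation factor P-TEFb is brought to promoters and enhancers. JQ1 and I-BET151 both occupy the bromodomain pocket and release BET proteins from chromatin. Genes widely used as readouts of this class of compound include Hexim1, which encodes an inhibitor of P-TEFb, histone genes, and Myc. In the early pancreatic bud the epithelium holds progenitors marked by Pdx1 and Sox9, the first glucagon cells, endocrine progenitors marked by Neurog3, and cells that begin to make digestive enzymes, set within mesenchyme, vessels, mesothelium and resident macrophages.

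The arrays carried the marks of that tissue. Intensities were 1579 and 1458 with I-BET151 and 1418 and 1650 with JQ1 for Sox9, with controls at 1531 and 1475, and 5442 and 5256 with I-BET151, 4740 and 5364 with JQ1 and 5478 and 5494 in the DMSO controls for Gcg, which encodes glucagon. Among markers of other tissues, Myod1 of skeletal muscle lay between 32 and 38 on the treated arrays and Ins2, which encodes insulin, between 9 and 11, below the intensity of 54.92 needed to enter the test. Liver genes also differed between arrays, and whether this came from liver tissue in the pools or from expression was not tested. The liver genes Alb and Afp were high on the second array of both compounds: Alb was measured at 35 and 421 with I-BET151 and 43 and 753 with JQ1 against 179 and 58 in the controls, and Afp at 81 and 383 with I-BET151, 74 and 522 with JQ1 and 388 and 279 in the DMSO controls. Of the 36 liver genes listed, 20 were bright enough to test, and their summed intensity was 9623 and 12063 with I-BET151, 9210 and 11611 with JQ1 and 15819 and 16303 in the controls. The list holds Hnf4a, Slc2a2 and Serpina6, which were far below the controls with both compounds, so the sum does not measure liver content alone. Genes of the sex chromosomes varied between pools, between the 2 controls and between the compounds: the Y-linked gene Eif2s3y was measured at 337 and 369 with I-BET151, 195 and 190 with JQ1 and 374 and 122 in the DMSO controls, and Xist, expressed from the inactive X chromosome, at 949 and 727 with I-BET151, 1238 and 1195 with JQ1 and 354 and 1222 in the DMSO controls. For the main lists that follow, the median difference is also given between the arrays numbered 1 alone, which were low in Alb, and between those numbered 2 alone. This check on the liver difference was added after the values were seen and without a test. It does not address the sex of the embryos, since Eif2s3y was lower and Xist higher with JQ1 in both pairs.

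Over all 24010 named genes, intensities were taken to log2 and differences are given as JQ1 minus I-BET151, so that positive values mean higher with JQ1. A gene was tested if its mean over the 4 treated arrays reached the median of all named genes, which left 12005 genes. With limma's moderated test and Benjamini-Hochberg adjustment, 0 of them (0% in either direction) differed at an adjusted p under 0.05, and the smallest adjusted p was 0.306. At an unadjusted p under 0.05 there were 901 genes (7.51%), 401 higher (3.34%) and 500 lower (4.16%) with JQ1. The intervals bound the differences: 11913 genes (99.2%) had a 95% confidence interval lying wholly within 1 log2 unit of 0, and 10673 (88.9%) within 0.5. Only Cybb differed by 1 log2 unit or more, and 103 genes by 0.5 or more, of which 42 were higher and 61 lower with JQ1. Correlation of log2 intensities over the tested genes was 0.9909 within I-BET151, 0.9918 within JQ1 and 0.9895 to 0.9915 between the compounds, while a control and a treated array correlated at 0.9705 to 0.9802. These coefficients run across genes, which are not independent replicates.

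More genes passed when limma's estimate of the spread was allowed to follow intensity. With an intensity trend 8 genes passed (0.0666%), 4 in each direction (0.0333%), and with a trend and robust estimation 27 (0.225%), 14 higher (0.117%) and 13 lower (0.108%) with JQ1. When the control arrays also entered the estimate of the spread, 14 genes passed with a trend (0.117%), 5 higher (0.0416%) and 9 lower (0.075%). With robust estimation as well, 31 passed (0.258%), 15 higher (0.125%) and 16 lower (0.133%). The 14 higher among the 27 were Snora34, Snora15, Snord49a, Snord89, Snord22, Snora16a, Snord66, Snora17, Snord15a, Ccn1, Mt2, Mt1, Tmem88 and Hexim1. The 13 lower were Cybb, Eif2s3y, Ugt2b34, Mpeg1, Cd180, Clec7a, Habp2, Sgce, Sox7, Clps, Ctrb1, Tmem255a and Sparcl1. The trend alone also passed Rny1. Adjusted p-values from the trend with robust estimation are given beside some of the genes that passed with it. They are also given for Hspa1a, Hspa1b and H2aw, which did not pass, and not for every gene named. None of these genes passed the main test. A 2 against 2 exact permutation test on 1 gene could not go below p = 0.333. As a plainer description, a gene's arrays were called separate when both JQ1 values lay on one side of both I-BET151 values. That held for 2244 genes higher with JQ1 (18.7%) and 2233 lower (18.6%), and these shares are the background for every list below.

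**Figure D1:**
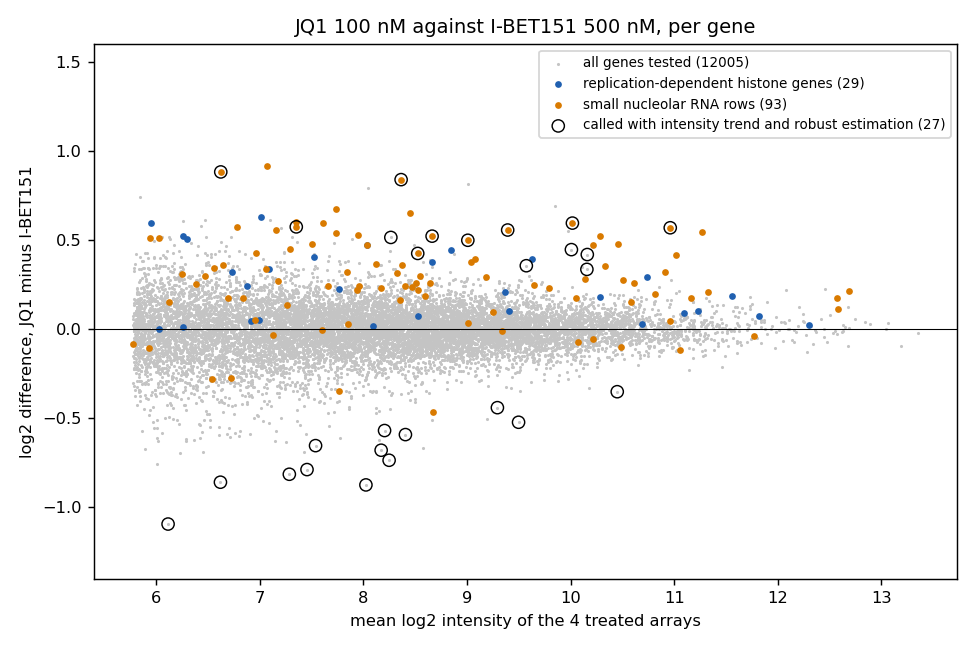
Difference between the compounds for each of the 12005 tested genes (vertical axis, log2 of JQ1 over I-BET151) against its mean log2 intensity on the 4 treated arrays (horizontal axis). Orange points are the 93 small nucleolar RNA rows, blue points the 29 replication-dependent histone genes, and rings the 27 genes that passed with an intensity trend and robust estimation. Most orange and blue points lie above 0, while the ringed genes lower with JQ1 are in neither class.

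Among the lists described here, the largest median difference was that of small nucleolar RNAs, the guides that direct chemical modification of ribosomal RNA. Of 114 such rows, 93 were tested, and 79 of the 93 had a higher mean with JQ1, as did 50.1% of all tested genes. The arrays of 55 (59.1%) were separate and higher with JQ1 and those of 4 (4.3%) were lower, against 18.7% and 18.6% of all genes. The median difference was 0.27 on the log2 scale, against 0.00 for all tested genes. It was 0.28 between the arrays numbered 1 and 0.28 between those numbered 2, and 0.25 to 0.29 when each array was left out in turn. Summed over the tested rows, intensity was 69067 and 72888 with I-BET151, 80394 and 85851 with JQ1 and 72920 and 66287 in the controls. Against the controls, the median was 0.05 for I-BET151 and 0.33 for JQ1, 2 comparisons that share the control arrays.

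Both structural families showed this difference. Among 53 tested rows of the box C/D family (Snord), whose members guide ribose methylation, 47 had a higher mean with JQ1 and the median was 0.26. Among 28 of the box H/ACA family (Snora), which guide pseudouridylation, 23 did and the median was 0.36. Between the arrays numbered 1 and those numbered 2, the medians were 0.24 and 0.29 for the first family and 0.37 and 0.37 for the other. Of 6 related small Cajal body RNAs, 4 had a higher mean, 2 (33.3%) were separate in each direction, and the median was 0.16. The rows named here were singled out after their values were seen. Snora34 was measured at 249 and 244 with I-BET151, 435 and 447 with JQ1 and 223 and 220 in the DMSO controls. The JQ1 arrays lay above all 4 others, and the I-BET151 arrays lay just above the controls. The difference was 0.84 ± 0.074 (SE, n = 2 arrays per compound; 95% interval 0.66 to 1.02), or 1.79-fold, with a limma adjusted p of 0.306, and of 0.000531 with trend and robust estimation. Snord22 was measured at 1606 and 1671 with I-BET151, 2403 and 2458 with JQ1 and 1589 and 1500 in the DMSO controls, a 1.48-fold difference (log2 0.57 ± 0.075 SE). Snord49a was measured at 819 and 869 with I-BET151, 1206 and 1347 with JQ1 and 914 and 779 in the DMSO controls, or 1.51-fold. The widest difference among them was at Snora31, 82 and 116 with I-BET151 and 197 and 172 with JQ1, or 1.89-fold. There the controls were at 131 and 134, between the compounds. Rny1, a small cytoplasmic RNA of the Ro particle and not a nucleolar guide, was measured at 659 and 805 with I-BET151, 1111 and 1241 with JQ1 and 856 and 688 in the DMSO controls. Its limma adjusted p was 0.407 in the main fit and 0.0497 with the trend. It was not among the 27 genes that passed with trend and robust estimation.

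Most mouse small nucleolar RNAs lie in introns of other genes and are cut out of their spliced introns. The row of a host gene therefore measures the RNA, protein-coding or not, that shares its transcription unit. In all, 68 tested rows lay inside the span of 49 tested host genes in the RefSeq annotation, strand not considered. Over the 68 rows the median difference was 0.26 and 35 were separate and higher with JQ1. Over the 49 hosts the median was 0.02, 27 had a higher mean with JQ1, 9 were separate and higher, 5 separate and lower, and differences ran from −0.26 to 0.27. Kansl2, the host of Snora34, differed by 0.07, Cct6a, the host of Snora15, by −0.05, and Snhg12, the host of Snora16a, by −0.02. The hosts of Snord22 (Snhg1) and Snora17 (Snhg7) differed by 0.12 and −0.09. Other tested rows inside these hosts went both ways. In Snhg12, Snora44 differed by −0.35, Snora61 by 0.34 and Snord99 by 0.27. Snora2b in Kansl2 differed by −0.08 and Snora43 in Snhg7 by −0.03. The host of Snord49a (2410006H16Rik) differed by 0.27, the highest of the 49, with its arrays separate and higher with JQ1. Tpt1, the host of Snora31, was too dim to be tested and differed by 0.31, also with separate arrays. Which probes make up each row, and whether they reach into flanking intron, is not stated in the labels.

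**Figure D2:**
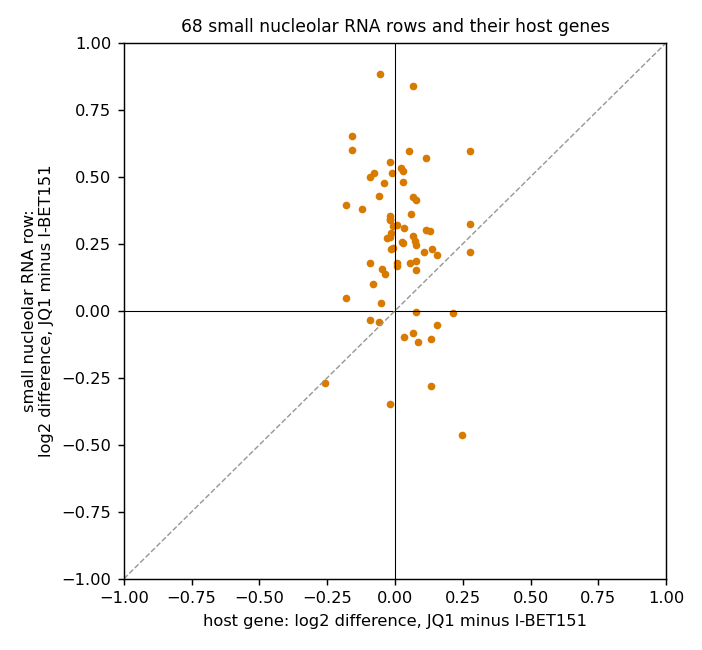
Each point is 1 of 68 small nucleolar RNA rows, placed by the log2 difference of its host gene (horizontal axis) and of the small RNA row itself (vertical axis), both as JQ1 minus I-BET151. The dashed line marks equal differences. Hosts spread narrowly around 0, from −0.26 to 0.27, and most small RNA rows lie above both 0 and the dashed line.

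MicroRNA rows lay nearer 0. Of 544 rows, 110 were bright enough to test, 58 had a higher mean with JQ1, and 18 (16.4%) were separate and higher against 7 (6.4%) lower. Their median was 0.02 and ran from −0.11 to 0.14 when single arrays were left out. It was -0.04 between the arrays numbered 1 and 0.11 between those numbered 2. Without any small RNA row, 11789 genes remained, and 2166 (18.4%) were separate and higher against 2222 (18.8%) lower.

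Replication-dependent histone genes, which lie in clusters, are transcribed in S phase and give mRNAs without a poly(A) tail, also had higher means with JQ1. All 29 tested of 39 measured had a higher mean with JQ1, 15 (51.7%) were separate and higher, 0 lower, and the median was 0.21. Without JQ1 replicate 1 the median was 0.28 and without I-BET151 replicate 1 it was 0.11. Between the arrays numbered 1 it was 0.23 and between those numbered 2 it was 0.17. Summed intensity was 24233 and 25978 with I-BET151, 25977 and 29363 with JQ1 and 27913 and 22231 in the controls, so the sums overlapped, since the higher I-BET151 array lay level with the lower JQ1 array. Against the controls the median was 0.14 for I-BET151 and 0.32 for JQ1.

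H2aw, a histone H2A gene, was measured at 112 and 96 with I-BET151, 171 and 150 with JQ1 and 60 and 54 in the DMSO controls. All 4 treated arrays lay above the controls, and both JQ1 arrays above both of I-BET151. The difference was 0.63 ± 0.11 (SE; 95% interval 0.35 to 0.90; limma adjusted p 0.407, and 0.0825 with trend and robust estimation), or 1.54-fold. H2bc4, an H2B gene, was measured at 1555 and 1537 with I-BET151, 1793 and 2000 with JQ1 and 569 and 593 in the DMSO controls, a difference of 0.29 ± 0.086. H2bc8, also an H2B gene, was at 436 and 358 with I-BET151, 569 and 507 with JQ1 and 250 and 202 in the DMSO controls, a difference of 0.44 ± 0.12. For both, the step from the controls to I-BET151 was larger than the step from I-BET151 to JQ1. H4c8, a histone H4 gene, was at 62 and 66 with I-BET151, 85 and 99 with JQ1 and 61 and 40 in the DMSO controls, with the I-BET151 arrays next to the higher control. The medians of the cell cycle lists lay nearer 0. Over 34 tested S phase genes the median was 0.03, with 11 (32.4%) separate and higher and 5 (14.7%) lower. Over 39 genes of G2 and M phase it was 0.01, with 10 (25.6%) higher and 4 (10.3%) lower. In both lists the share that was higher with JQ1 lay above the 18.7% of all genes.

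A few stress genes had higher means with JQ1. Metallothioneins bind zinc and copper, and metals induce their genes through metal response elements in the promoters. Mt1 was measured at 1060 and 926 with I-BET151, 1291 and 1359 with JQ1 and 772 and 762 in the DMSO controls. Mt2, its neighbour on the chromosome, was measured at 960 and 811 with I-BET151, 1186 and 1219 with JQ1 and 502 and 508 in the DMSO controls. In both genes the 3 groups formed 3 separate steps, with the controls lowest and JQ1 highest. The differences were 0.42 ± 0.095 (1.34-fold; limma adjusted p 0.482, and 0.0279 with trend and robust estimation) and 0.45 ± 0.10 (1.36-fold; 0.484 and 0.0499). Slc30a1, a zinc exporter also induced by zinc, was at 181 and 200 with I-BET151, 235 and 226 with JQ1 and 155 and 169 in the DMSO controls, a difference of 0.28 ± 0.086. Of the 12 tested genes of the metal and zinc list, 6 (50%) were separate and higher, 3 (25%) lower, and the median was 0.08. It was 0.04 without JQ1 replicate 1 and also without I-BET151 replicate 1. Between the arrays numbered 1 it was 0.18, while between those numbered 2 it was 0.00, so the list as a whole differed in the first pair only.

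Hspa1a and Hspa1b, a pair of heat shock genes that encode an inducible chaperone, also had higher means with JQ1. Hspa1a was measured at 262 and 154 with I-BET151, 358 and 339 with JQ1 and 79 and 87 in the DMSO controls. The JQ1 arrays were the highest and close together, and the I-BET151 arrays differed widely from each other. The difference was 0.79 ± 0.24 (SE; 95% interval 0.21 to 1.38; limma adjusted p 0.575, and 0.653 with trend and robust estimation), or 1.73-fold. It was 0.45 between the arrays numbered 1 and 1.14 between the arrays numbered 2. Hspa1b was at 130 and 94 with I-BET151, 191 and 150 with JQ1 and 44 and 54 in the DMSO controls, a difference of 0.61 ± 0.19. Its limma adjusted p was 0.581 in the main fit and 0.332 with trend and robust estimation. The 2 genes are near-identical copies, so their rows may share signal and are not independent. Other members lay nearer 0. Of 34 tested chaperone and heat shock genes, 5 (14.7%) lay wholly higher and 10 (29.4%) wholly lower with JQ1, against 18.7% and 18.6% of all genes. The median was 0.01, being 0.02 and -0.04 between the like-numbered arrays. Stip1, a co-chaperone, differed by 0.22 ± 0.076, while Dnajb1, another gene induced by heat shock, was at 325 and 305 with I-BET151, 325 and 307 with JQ1 and 272 and 271 in the DMSO controls, and the constitutive Hspa8 at 7169 and 7859 with I-BET151, 7423 and 7894 with JQ1 and 7772 and 7980 in the DMSO controls. Over 30 genes of the unfolded protein and integrated stress responses the median was 0.02, and over 19 targets of the oxidative stress factor NRF2 it was 0.01.

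The promoters of these stress genes are shown with their matches to short heat shock and metal response motifs. Each sequence is the RefSeq promoter window in GRCm38.p6, 250 bases before to 50 after the annotated start, 5′ to 3′ on the gene's strand: Hspa1a at chr17:34972107-34972406, minus strand, Mt1 at chr8:94178839-94179138, plus strand and Mt2 at chr8:94172368-94172667, plus strand. Capitals mark, in Hspa1a, a pair of heat shock units (GAANNTTC or TTCNNGAA), and in Mt1 and Mt2 the metal response core TGCACNC or TGCGCNC, each searched on both strands.
Hspa1a: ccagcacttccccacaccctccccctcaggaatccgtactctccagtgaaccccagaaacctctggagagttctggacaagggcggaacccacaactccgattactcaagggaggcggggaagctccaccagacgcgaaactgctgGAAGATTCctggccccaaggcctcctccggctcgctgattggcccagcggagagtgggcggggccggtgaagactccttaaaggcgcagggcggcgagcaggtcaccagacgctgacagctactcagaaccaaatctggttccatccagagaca
Mt1: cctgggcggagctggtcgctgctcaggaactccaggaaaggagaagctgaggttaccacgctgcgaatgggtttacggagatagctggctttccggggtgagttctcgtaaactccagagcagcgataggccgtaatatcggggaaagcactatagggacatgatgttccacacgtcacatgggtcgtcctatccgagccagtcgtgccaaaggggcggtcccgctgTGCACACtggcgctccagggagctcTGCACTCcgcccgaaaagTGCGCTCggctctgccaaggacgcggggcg
Mt2: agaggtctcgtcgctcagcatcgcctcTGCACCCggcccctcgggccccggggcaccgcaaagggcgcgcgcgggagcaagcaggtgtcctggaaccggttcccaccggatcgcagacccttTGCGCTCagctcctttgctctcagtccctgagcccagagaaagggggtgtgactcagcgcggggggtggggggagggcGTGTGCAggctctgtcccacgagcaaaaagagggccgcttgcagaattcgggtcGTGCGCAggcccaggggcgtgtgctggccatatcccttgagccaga
Hspa1a held 1 match, as did Hspa1b, whose window differs from it at 4 of 300 positions. At least 1 such pair is in 15.1% of the 32851 windows of the table. Mt1 held 3 metal response cores and Mt2 held 4, where 1.97% of windows hold 3 or more and 0.517% hold 4 or more. A match describes the letters of the window and is not a measured binding site.

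Immediate early genes, transcribed within minutes of growth factor signals, had slightly higher means with JQ1. Of 25 tested, 19 had a higher mean with JQ1, 9 (36%) were separate and higher and 1 (4%) lower. The median was 0.14, and 0.06 without JQ1 replicate 2. It was 0.07 between the arrays numbered 1 and 0.12 between those numbered 2. Ccn1, a secreted matricellular protein and a target of YAP and of serum response factor, was measured at 258 and 257 with I-BET151, 361 and 375 with JQ1 and 295 and 276 in the DMSO controls. JQ1 lay above both other groups, and I-BET151 below both. The difference was 0.51 ± 0.075 (1.43-fold; limma adjusted p 0.382, and 0.0217 with trend and robust estimation). Gadd45b, a stress and growth arrest gene, was at 126 and 134 with I-BET151, 179 and 170 with JQ1 and 139 and 112 in the DMSO controls. Fos was dim, at 68 and 65 with I-BET151, 77 and 81 with JQ1 and 64 and 69 in the DMSO controls, and Egr1 overlapped at 262 and 243 with I-BET151, 262 and 262 with JQ1 and 182 and 170 in the DMSO controls.

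**Figure D3:**
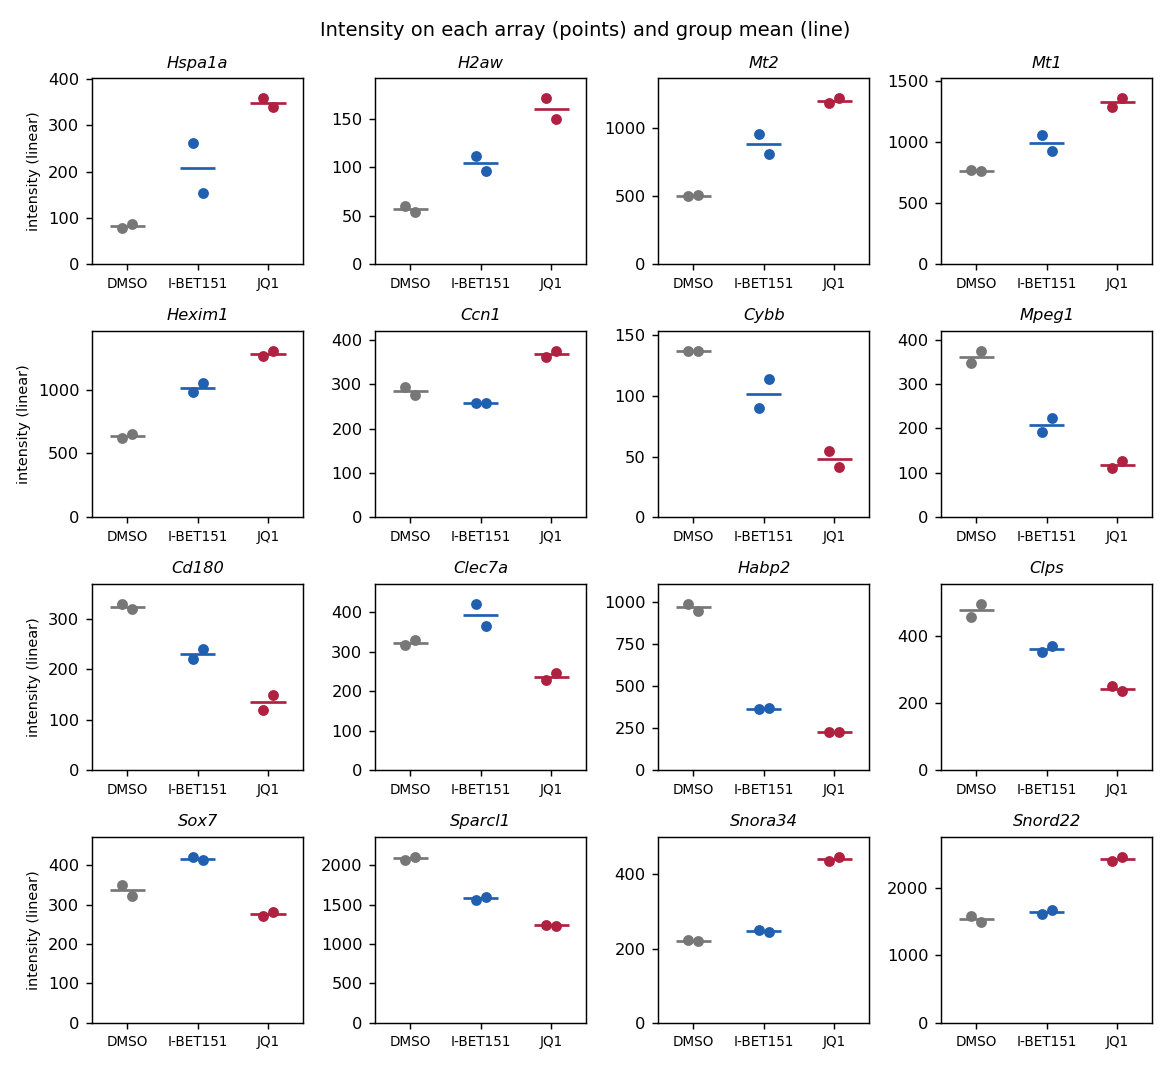
Linear intensity of 16 genes on each array (points) with the group mean (line), for DMSO, I-BET151 at 500 nM and JQ1 at 100 nM. Vertical axes start at 0 and differ between panels. The JQ1 arrays lie above those of I-BET151 in the panels from Hspa1a to Ccn1 and in both small nucleolar RNAs, and below them in the others.

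Of Hexim1, Myc, Txnip and Ccnd1, which are often followed under BET inhibitors, Hexim1 had the largest difference between the compounds. Hexim1 was measured at 982 and 1053 with I-BET151, 1263 and 1304 with JQ1 and 625 and 656 in the DMSO controls, 3 steps without overlap. The difference between the compounds was 0.34 ± 0.08 (SE; 95% interval 0.14 to 0.53), or 1.26-fold, with a limma adjusted p of 0.506 and of 0.0499 with trend and robust estimation. Myc was at 429 and 468 with I-BET151, 461 and 506 with JQ1 and 662 and 681 in the DMSO controls. Its treated arrays overlapped, all below the controls, and the 95% interval of the difference ran from -0.11 to 0.33. Txnip, a regulator of redox state and glucose uptake, was at 3117 and 3278 with I-BET151, 3377 and 3426 with JQ1 and 2345 and 2373 in the DMSO controls, a difference of 0.09 ± 0.076. Ccnd1, which encodes cyclin D1, was at 555 and 533 with I-BET151, 504 and 507 with JQ1 and 987 and 999 in the DMSO controls, a difference of -0.11 ± 0.075. Among the drug targets themselves, Brd2 was at 682 and 658 with I-BET151, 738 and 747 with JQ1 and 595 and 576 in the DMSO controls and Brd3 at 1131 and 1061 with I-BET151, 1052 and 1096 with JQ1 and 1075 and 1082 in the DMSO controls. Of 17 tested genes of the BET and P-TEFb list, 7 (41.2%) were separate and higher with JQ1 and 1 lower, with a median of 0.04. Of 15 tested genes listed as responders to BET inhibitors, 7 (46.7%) were separate and higher and 4 (26.7%) lower, with a median of 0.09. Their differences ran from -0.79 to 0.63, wider in both directions than that of Hexim1. The 32 tested genes of the Myc network and its growth targets had a median of 0.02.

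In the other direction, several macrophage genes were measured far lower with JQ1, though not all of them. Cybb, the heavy chain of the phagocyte oxidase, was measured at 90 and 114 with I-BET151, 55 and 41 with JQ1 and 137 and 137 in the DMSO controls. The 3 groups formed separate steps downward from the controls. The difference was -1.09 ± 0.17 (SE; 95% interval -1.52 to -0.66), or 2.13-fold higher with I-BET151, with a limma adjusted p of 0.407 and of 0.0268 with trend and robust estimation. It was -0.71 between the arrays numbered 1 and -1.48 between the arrays numbered 2. Mpeg1, a pore-forming protein of macrophages, was at 192 and 223 with I-BET151, 110 and 126 with JQ1 and 348 and 374 in the DMSO controls, a difference of -0.81 ± 0.11 that was nearly equal between both pairs of like-numbered arrays. Cd180, a receptor related to toll-like receptors, was at 221 and 241 with I-BET151, 120 and 149 with JQ1 and 330 and 320 in the DMSO controls, a difference of -0.79 ± 0.12.

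Clec7a, the receptor dectin-1 for fungal glucans, was at 421 and 366 with I-BET151, 227 and 245 with JQ1 and 316 and 330 in the DMSO controls, so that the controls lay between the compounds. Its difference was -0.74 ± 0.099, or 1.66-fold higher with I-BET151, with a limma adjusted p of 0.349 and of 0.00422 with trend and robust estimation. Other genes of the same cells were measured the other way or overlapped. Ms4a6d, a macrophage membrane protein, was at 121 and 146 with I-BET151, 179 and 202 with JQ1 and 124 and 134 in the DMSO controls, and the complement gene C1qa at 241 and 246 with I-BET151, 283 and 318 with JQ1 and 238 and 257 in the DMSO controls, both higher with JQ1. The lineage receptor Csf1r was at 824 and 701 with I-BET151, 633 and 700 with JQ1 and 540 and 592 in the DMSO controls, with the nearest arrays almost level, and Ptprc, the leukocyte antigen CD45, overlapped at 124 and 134 with I-BET151, 125 and 116 with JQ1 and 134 and 162 in the DMSO controls. Of 18 tested markers of macrophages and other immune cells, 9 (50%) were separate and lower with JQ1 and 3 (16.7%) higher, and the median was -0.12. The list does not hold Cybb, Mpeg1, Cd180, Clec7a or Ms4a6d. Its median was −0.07 without JQ1 replicate 1 and also without I-BET151 replicate 1. It was -0.19 between the arrays numbered 1 and -0.02 between those numbered 2. Their summed intensity overlapped between compounds: 9299 and 8664 with I-BET151, 8236 and 8767 with JQ1 and 8943 and 9591 in the controls. In these whole buds, fewer cells of a type and less RNA per cell cannot be told apart.

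Most endothelial genes had slightly lower means with JQ1. Of 28 tested of 32 measured, 26 had a lower mean with JQ1, 16 (57.1%) were separate and lower and 0 higher. The median was -0.14, from -0.19 to -0.11 with single arrays left out, and was -0.13 and -0.19 between the like-numbered arrays. Summed intensity was 8579 and 9310 with I-BET151, 8080 and 8139 with JQ1 and 11542 and 11890 in the controls. Sox7, a transcription factor of vessel and blood precursors, had the lowest difference of the list. It was measured at 421 and 412 with I-BET151, 272 and 281 with JQ1 and 349 and 323 in the DMSO controls, above the controls with I-BET151 and below them with JQ1. The difference was -0.59 ± 0.075 (SE; 95% interval -0.77 to -0.41), or 1.51-fold higher with I-BET151, with a limma adjusted p of 0.349 and of 0.0079 with trend and robust estimation. Esm1, secreted by sprouting tip cells, was at 149 and 161 with I-BET151, 118 and 114 with JQ1 and 118 and 120 in the DMSO controls, also higher with I-BET151 than in both other groups. The junction proteins Pecam1 (557 and 574 with I-BET151, 466 and 507 with JQ1 and 724 and 707 in the DMSO controls) and Cdh5 (1237 and 1317 with I-BET151, 1157 and 1210 with JQ1 and 1640 and 1611 in the DMSO controls) differed by -0.22 ± 0.082 and -0.11 ± 0.08.

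Most genes of the acinar list bright enough to test had lower means with JQ1. The list holds digestive enzymes and other acinar genes, among them transcription factors and the receptor gene Cckar. Of 35 measured, 10 were tested. Among those, 8 had a lower mean with JQ1, 6 (60%) were separate and lower and 0 higher, and the median was -0.20, from -0.30 to -0.17 with single arrays left out. It was -0.19 between the arrays numbered 1 and -0.27 between those numbered 2. Summed intensity, of which Cpa1 was the largest part, was 5871 and 6203 with I-BET151, 5055 and 5044 with JQ1 and 6734 and 7410 in the controls. Ctrb1, which encodes chymotrypsinogen, was measured at 821 and 915 with I-BET151, 583 and 625 with JQ1 and 1005 and 1115 in the DMSO controls, 3 steps downward without overlap. Its difference was -0.52 ± 0.091 (limma adjusted p 0.407, and 0.0097 with trend and robust estimation). Clps, the cofactor of pancreatic lipase, was at 350 and 369 with I-BET151, 251 and 234 with JQ1 and 456 and 494 in the DMSO controls, a difference of -0.57 ± 0.082, or 1.48-fold higher with I-BET151. The lipase-related Pnliprp1 was at 165 and 219 with I-BET151, 125 and 120 with JQ1 and 528 and 648 in the DMSO controls, and carboxyl ester lipase, Cel, at 136 and 166 with I-BET151, 111 and 110 with JQ1 and 195 and 230 in the DMSO controls. Carboxypeptidase Cpa1, bright in early tip cells, was at 3046 and 3010 with I-BET151, 2665 and 2568 with JQ1 and 2925 and 3183 in the DMSO controls: the I-BET151 arrays lay among the controls and the JQ1 arrays below both.

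Several single genes that were far below the controls with both compounds were lower still with JQ1. Habp2, a secreted hyaluronan-binding protease, was measured at 361 and 369 with I-BET151, 228 and 228 with JQ1 and 987 and 948 in the DMSO controls. Its arrays agreed closely within each group, and the difference of -0.68 ± 0.073 (1.6-fold higher with I-BET151) had a limma adjusted p of 0.349 and of 0.00417 with trend and robust estimation. Ugt2b34, a glucuronosyltransferase, was at 122 and 144 with I-BET151, 81 and 66 with JQ1 and 242 and 303 in the DMSO controls, a difference of -0.86 ± 0.13. Slc2a2, which encodes the glucose transporter GLUT2, was at 99 and 125 with I-BET151, 76 and 76 with JQ1 and 544 and 655 in the DMSO controls, a difference of -0.55 ± 0.12. Cckar, the cholecystokinin receptor, was at 50 and 66 with I-BET151, 31 and 37 with JQ1 and 321 and 398 in the DMSO controls and was too dim to be tested. Serpina6, which encodes corticosteroid-binding globulin, was at 351 and 657 with I-BET151, 225 and 406 with JQ1 and 1654 and 1927 in the DMSO controls. Its treated arrays overlapped, and the arrays numbered 2, those with high Alb, were the higher of each pair. Habp2 and Slc2a2 are also expressed in liver. Between the low and the high Alb array of each compound, Slc2a2 was 99 and 125 with I-BET151 and 76 and 76 with JQ1, and Habp2 361 and 369 and 228 and 228. The part of liver content in these differences was not tested. Hnf4a, a hepatic and pancreatic transcription factor, was at 141 and 132 with I-BET151, 120 and 127 with JQ1 and 276 and 286 in the DMSO controls, a difference of -0.14 ± 0.081. Across the 20 tested liver genes the median was -0.11, but it ran from -0.32 to 0.09 with single arrays left out: it was -0.32 without JQ1 replicate 2, -0.31 without I-BET151 replicate 1, 0.06 without JQ1 replicate 1 and 0.09 without I-BET151 replicate 2. Between the like-numbered arrays it was -0.09 and -0.04.

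**Figure D4:**
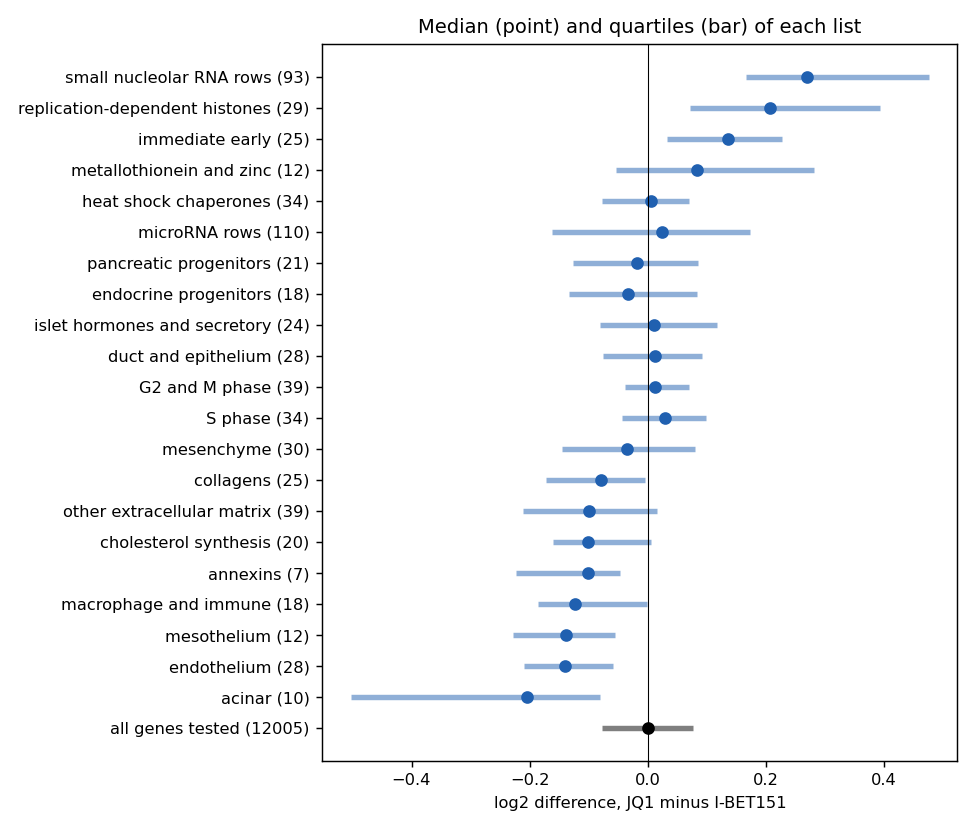
Median (point) and quartiles (bar) of the log2 difference, JQ1 minus I-BET151, over the tested genes of each list, with the number of genes in brackets. The black point is all 12005 tested genes, with a median of 0.00. Small nucleolar RNA rows and histone genes lie highest, acinar genes lowest, and progenitor, islet, duct and cell cycle lists lie close to 0.

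Many matrix and mesothelial genes had modestly lower means with JQ1. Of 39 tested genes of the extracellular matrix outside the collagens, 18 (46.2%) were separate and lower and 2 higher, with a median of -0.10, and of -0.08 and -0.06 between the like-numbered arrays. Sparcl1, a secreted matrix glycoprotein, was measured at 1564 and 1597 with I-BET151, 1247 and 1232 with JQ1 and 2071 and 2108 in the DMSO controls, a difference of -0.35 ± 0.073 (limma adjusted p 0.482 in the main fit). The small proteoglycans Dcn (117 and 136 with I-BET151, 97 and 76 with JQ1 and 315 and 302 in the DMSO controls) and Bgn (822 and 826 with I-BET151, 671 and 625 with JQ1 and 1692 and 1514 in the DMSO controls) followed the same order, each below the controls with both compounds and lowest with JQ1. Of 25 tested collagens, 7 (28%) were separate and lower and 1 higher, and the median was -0.08, from -0.10 to -0.03 with single arrays left out. It was -0.10 between the arrays numbered 1 and 0.01 between those numbered 2, so the second pair did not show it. Of 12 tested mesothelial genes, 7 (58.3%) were separate and lower and 0 higher, with a median of -0.14, and of -0.11 and -0.15 between the like-numbered arrays. Their summed intensity was 10327 and 10250 with I-BET151, 9664 and 9720 with JQ1 and 9739 and 9571 in the controls, and the median against the controls was 0.14 for I-BET151 and -0.07 for JQ1. Upk3b, a uroplakin of the mesothelial surface, was at 395 and 411 with I-BET151, 330 and 283 with JQ1 and 701 and 641 in the DMSO controls, unlike the list in lying far below the controls with both compounds. Of 7 tested annexins, calcium-dependent membrane-binding proteins, 5 (71.4%) were separate and lower, with a median of -0.10, and of -0.13 and -0.14 between the like-numbered arrays. Of 20 tested genes of cholesterol synthesis, 8 (40%) were separate and lower and 0 higher. Their median of -0.10 was -0.02 between the arrays numbered 1 and -0.18 between those numbered 2. General mesenchymal genes were mixed: of 30 tested, 6 (20%) were separate and higher and 9 (30%) lower. The median was -0.04, being -0.05 and 0.01 between the like-numbered arrays.

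**Figure D5:**
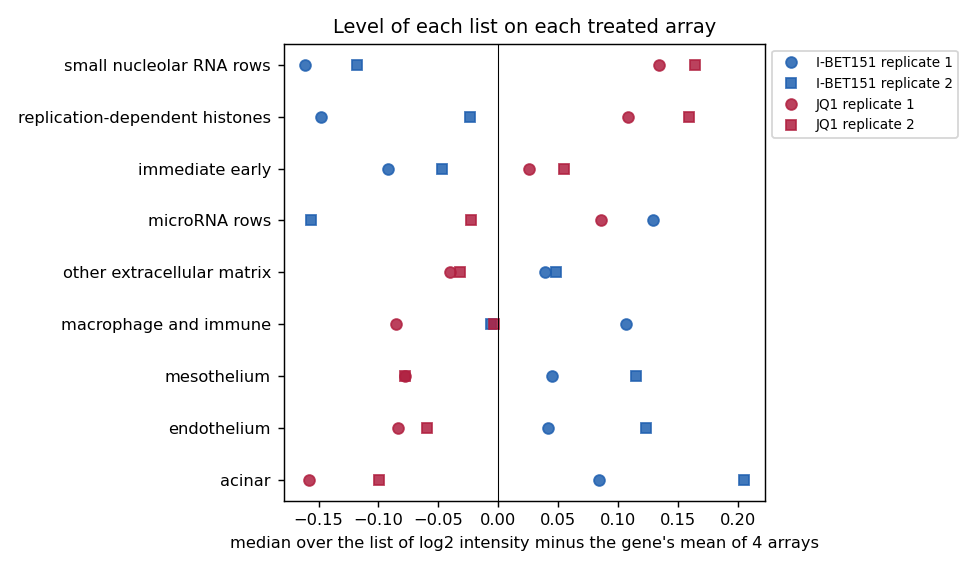
Level of 9 lists on each treated array, as the median over the list of log2 intensity minus the gene's mean over the 4 arrays (horizontal axis). Blue is I-BET151 and red is JQ1, circles are replicate 1 and squares replicate 2. The compounds separate for small nucleolar RNA rows, histones, immediate early, matrix, mesothelial, endothelial and acinar genes, and not for microRNA rows, while the second arrays of both compounds coincide for macrophage and immune genes.

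Unlike the acinar list, with its median of -0.20, the progenitor, endocrine and duct lists of the bud epithelium had medians near 0. Of 21 tested genes of pancreatic progenitors, 0 were separate and higher and 3 (14.3%) lower, Cpa1 among them, and the median was -0.02. It was -0.13 between the arrays numbered 1 and 0.08 between those numbered 2, so its sign turned. Pdx1 was measured at 246 and 281 with I-BET151, 244 and 330 with JQ1 and 252 and 228 in the DMSO controls, with a 95% interval of the difference from -0.28 to 0.50. Sox9 differed by 0.01 ± 0.10, with an interval from -0.24 to 0.26. Nkx6-1, a factor of the beta cell lineage, was at 425 and 309 with I-BET151, 313 and 409 with JQ1 and 307 and 328 in the DMSO controls. Its replicates crossed, and the interval from -0.49 to 0.45 holds both directions, so smaller differences were not detectable. Neurog3, the factor that commits cells to the endocrine fate, was at 539 and 498 with I-BET151, 508 and 439 with JQ1 and 432 and 520 in the DMSO controls, with an interval from -0.38 to 0.12. Over 18 tested genes of endocrine progenitors the median was -0.03, over 24 of islet hormones and secretory proteins 0.01, and over 28 of duct and epithelium 0.01. Between the arrays numbered 1 and those numbered 2 they were -0.02 and 0.02, -0.04 and 0.06, and 0.02 and 0.04. The share of separate arrays in these 3 lists was 22.2%, 20.8% and 17.9% higher and 16.7%, 12.5% and 17.9% lower with JQ1, close to the background of all genes.

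Genes of ribosomes and mitochondria differed between the pairs of arrays. Over 72 tested mitochondrial ribosomal proteins the median was 0.06, being 0.13 between the arrays numbered 1 and -0.01 between those numbered 2. Over 35 tested cytosolic ribosomal proteins it was 0.08, being 0.16 and -0.03. The snoRNA difference, in contrast, was 0.28 and 0.28 in the same pairs. Cyp1a1, a sensitive target of the aryl hydrocarbon receptor, was too dim to be tested, at 52 and 51 with I-BET151, 55 and 51 with JQ1 and 65 and 55 in the DMSO controls. Of 34 genes of xenobiotic metabolism and efflux only 8 were tested, with 2 (25%) separate and higher and 4 (50%) lower. Of 19 tested genes of neural crest, glia and neurons, 13 had a higher mean with JQ1, 5 (26.3%) were separate and higher and 2 (10.5%) lower. The median was 0.07. Gap43, a growth cone protein of neurons and the lowest of that list, was at 306 and 408 with I-BET151, 212 and 249 with JQ1 and 527 and 498 in the DMSO controls, and Alas2, the erythroid enzyme of haem synthesis, at 293 and 320 with I-BET151, 458 and 393 with JQ1 and 270 and 420 in the DMSO controls. Bmp4, a signal of mesenchyme, was at 276 and 278 with I-BET151, 376 and 327 with JQ1 and 356 and 290 in the DMSO controls, and its target Id3 at 460 and 468 with I-BET151, 613 and 518 with JQ1 and 730 and 649 in the DMSO controls, both with the JQ1 arrays above those of I-BET151. They had the smallest p of the 24 tested genes of the TGF-beta and BMP list. In that list 10 genes had a higher mean with JQ1 and 14 a lower one, and the median was -0.004. Among imprinted genes, Sgce was at 223 and 244 with I-BET151, 163 and 135 with JQ1 and 320 and 316 in the DMSO controls and Rtl1 at 87 and 81 with I-BET151, 44 and 56 with JQ1 and 111 and 144 in the DMSO controls, both in 3 steps downward. None of the last 6 genes passed the main test, and their limma adjusted p-values ran from 0.407 to 0.612.

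Eif2s3y, on the Y chromosome, had the smallest adjusted p of the main fit together with Snora34, 0.306, and differed by -0.87 ± 0.083. The 2 control pools, which had the same treatment, lay further apart (374 and 122) than the compounds did. The other Y-linked genes Uty (274 and 266 with I-BET151, 257 and 122 with JQ1 and 298 and 165 in the DMSO controls) and Kdm5d (167 and 220 with I-BET151, 166 and 118 with JQ1 and 218 and 104 in the DMSO controls) were also lower with JQ1, and Xist was higher. The share of male embryos in each pool cannot be told apart here from an effect of the compound.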

How the data were processed

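RNA from pools of cultured buds was amplified, labelled with biotin and hybridised to whole-transcript arrays, 1 pool per array, per the labels' protocols. Per the submitters' processing notes, the authors normalized the arrays with RMA, a background correction, quantile normalization and probe summary, whose version is not given. The deposited table holds linear intensities, which are whole numbers from 5 to 11028 with no detection calls. RMA removes differences in total signal, so a shift common to most genes would be hidden, and rounding gives dim genes equal values: 646 named genes were equal within both treated pairs. For arrays, their number, 2 per group, limits the precision. Probe grouping and genome build are not given in the sources used here.

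Of 24972 rows, 24014 had 1 gene symbol in the platform annotation and 958 were not listed. For 4 symbols with several rows the brightest was kept, which left 24010 genes, and 23921 IDs matched a RefSeq table (GRCm38.p6). Groups came from the sample titles. Intensities were taken to log2 with no pseudocount. The comparison used limma 3.58.1 in R 4.3.3 (lmFit and eBayes) on the 4 treated arrays, over 12005 genes with a mean at or above the median of named genes (an intensity of 54.92), with 2 residual and 3.85 prior degrees of freedom, and Benjamini-Hochberg adjustment with a threshold of 0.05. Intervals of 95% use the moderated SE. The script was checked on simulated arrays with set differences.

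Members and gene lists were chosen with earlier results of these data known. Genes were named by rule: the 12 largest differences in each direction (with no call, among genes whose arrays do not overlap), up to 2 members per list with the smallest p, and 19 genes chosen by name. Predicted genes and small RNAs were to be counted by class only. The small RNAs, the genes singled out by the trend fits, the sex-linked genes and the further list members named in the text were chosen after their values were seen. Alternatives were the filter, all 6 arrays, an intensity trend with and without robust estimation, centring, a pseudocount of 16, a replicate block and leaving out each array. Trends over 6 arrays, and comparisons within like-numbered arrays, were added after seeing the data.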

Additional observations from a re-analysis of the deposited data

How the results depend on the processing

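The count of genes that differed was 0 in the main fit and depended on how limma modelled the spread. It was 8 with an intensity trend (4 higher, 4 lower with JQ1) and 27 with a trend and robust estimation (14 higher, 13 lower). With all 6 arrays, fits added after seeing the data gave 14 with a trend (5 higher, 9 lower) and 31 with a trend and robust estimation (15 higher, 16 lower), and 25 of the 27 were among these 31. It stayed 0 with no filter (1667 genes at an unadjusted p under 0.05), the dimmest 25% left out (1075), a minimum mean intensity of 100 (850), all 6 arrays without a trend (1008), all 6 arrays with no filter (1610), centred arrays (877), a pseudocount of 16 (935), and with each array left out in turn (0 to 0 calls, 504 to 805 genes). Deviations of like-numbered arrays from their group means correlated at 0.0484 over the tested genes. Such a coefficient cannot show whether like-numbered pools were prepared together, which the labels do not say. Alb and Afp were high on the second array of both compounds. With the number as a replicate block, the count was 0 on 4 arrays (821 genes at an unadjusted p under 0.05) and 0 on 6 (940). Of 2335 values for 139 named genes, 3 turned direction, each with an array left out. Pdx1 ran from −0.11 without JQ1 replicate 2 to 0.33 without JQ1 replicate 1. Brd3 ran from −0.0749 without I-BET151 replicate 2 to 0.017 without I-BET151 replicate 1, and was just above 0 without JQ1 replicate 1. Of 935 list medians, 842 moved by less than the spread between replicates. Dim genes, those below the filter, were not tested.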
